A study of Mus musculus with 30 samples.

Results

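The KEAP1-NRF2 antioxidant response was described here through 10 genes, taken by name from a table of gene counts that held 55487 genes: Nfe2l2, Keap1, Gclc, Gclm, Txnrd1, Srxn1, Nqo1, Hmox1, Cat and Osgin1. All 10 had enough reads to be tested, among 15907 genes tested in all. The counts came from C2C12 cells, an established mouse myoblast line of wild type that fuses into multinucleated myotubes in culture. Every culture was differentiated for 4 days in low glucose medium with 2% horse serum and then kept for 4 further days, 8 days in all. The 2% HS group stayed in 2% horse serum. The serum deprived group (SD) received no serum, the MET group no serum with 100 nM metformin, the LEU group no serum with 500 nM leucine, and the MET+LEU group no serum with both agents at the same doses. Each group had 6 replicates of ribosomal RNA-depleted total RNA, so there were 30 libraries. The study asked what serum withdrawal, an atrophy stimulus, does to myotubes and whether either agent or the pair changes it. A single cell line limits the model, and no source used here says whether the 6 replicates came from separate culture runs, so the p-values measure the spread between these libraries.

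Nfe2l2 encodes NRF2, a transcription factor that is made continuously and is bound by KEAP1, the substrate adaptor of a CUL3 ubiquitin ligase, which sends it to the proteasome. Oxidants and electrophiles modify cysteines of KEAP1, NRF2 then accumulates, pairs with small MAF proteins and binds antioxidant response elements of genes for glutathione synthesis, thioredoxin reduction, quinone reduction and haem breakdown. This control acts largely on NRF2 protein, which the RNA counts do not measure. In skeletal muscle these enzymes handle the oxidants that arise from mitochondria and from oxidases of the contracting or unloaded fibre.

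Libraries held 12784960 to 19604103 counts, and a member had between 14 and 2235 counts in a library. Levels are given in CPM, the field's usual unit of counts scaled to the library's total (here after TMM scaling), and fold changes as log2 differences (first group minus second) with the standard error (SE) from edgeR's quasi-likelihood model over all 30 libraries, with Benjamini-Hochberg adjusted p over all 15907 genes and a threshold of 0.05. One library stood apart. In MET+LEU replicate 6, ribosomal RNA took 5.85% of counts and mitochondrial ribosomal RNA 7.64%, against at most 1.96% and 0.760% in the other 29 libraries. Mitochondrial ribosomal RNA also differed by group. It took 0.22% to 0.31% of counts in 2% HS, 0.28% to 0.37% in SD and 0.24% to 0.705% in MET. In LEU it took 0.50% to 0.71%, and in every MET+LEU library at least 0.649%. The part of this in the members' differences was not tested. The 10 myotube markers checked were present in every group, whereas the 3 adipocyte and 3 endothelial markers stayed under 1 CPM in every library and the 3 erythroid markers were at 0. Of the 4 macrophage markers, 3 stayed under 1 CPM, and Cd68, which is not restricted to macrophages, reached 3.72 CPM in SD. In bulk RNA, fewer cells of a type and less RNA per cell cannot be told apart.

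Per kilobase of annotated exon, the members spanned a wide range of levels. The mean over 30 libraries was 30.9 CPM per kilobase (RPKM) for Gclc, 27.98 for Nfe2l2, 24.8 for Cat, 17.7 for Hmox1, 12.3 for Txnrd1, 10.6 for Keap1, 5.78 for Srxn1, 5.65 for Osgin1, 2.99 for Gclm and 1.22 for Nqo1. Gclc was above Nfe2l2 in 25 of 30 libraries and Nfe2l2 above Cat in 27, so the order of these highest members was not the same in every library. Srxn1 and Osgin1 did not differ beyond their spread, with Srxn1 above in 19 of 30 libraries. Each of the other neighbours in the order differed the same way in all 30. Exon length here joined the exons of all annotated transcripts, so a gene with long alternative ends reads lower on this scale.

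**Figure D1:**
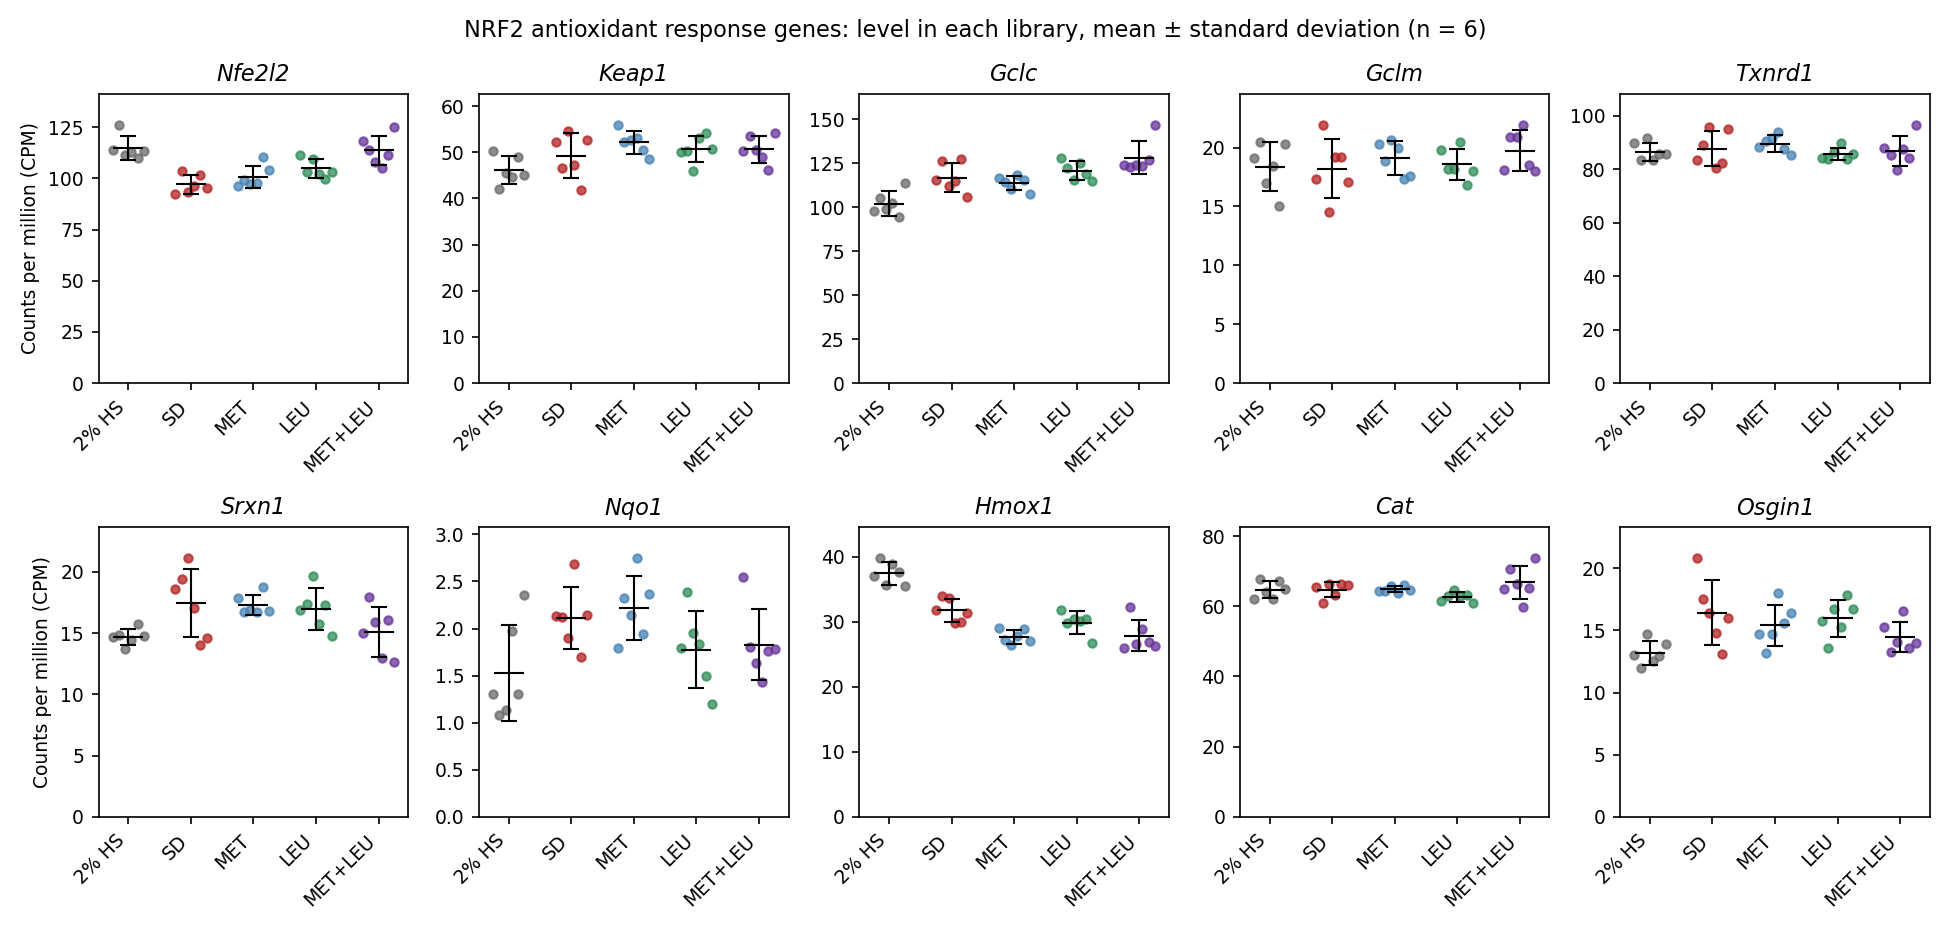
Level of each member in every library (points, 6 per group) in CPM, with the group mean and standard deviation as black bars, every axis starting at 0. Nfe2l2 was lower in all SD libraries (92.5 to 104 CPM) than in any 2% HS or MET+LEU library, Hmox1 was highest in 2% HS, and Gclm, Txnrd1 and Cat passed the test in no comparison.

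Nfe2l2 fell with serum deprivation and stood at the 2% HS level in MET+LEU. The gene (chr2:75675513-75704641, minus strand, GRCm38) codes for NRF2 itself, and a small nuclear RNA gene inside it, Gm24996, had at most 1.78 CPM. In 2% HS its level ran from 109.7 to 126 CPM with a median of 113. In SD it ran from 92.5 to 104 with a median of 95.7, and no SD library overlapped with 2% HS. The mean fell by 15.3%, from 115 ± 5.90 to 97.1 ± 4.49 CPM (standard deviation, n = 6 each), a log2 change of -0.24 (SE 0.04, adjusted p = 1.45e-05 by edgeR). With MET+LEU the level ran from 105 to 125 CPM with a median of 113, again with no overlap with SD. The log2 difference of MET+LEU vs. SD was 0.23 (SE 0.04, adjusted p = 0.000149 by edgeR). Without MET+LEU replicate 6, the highest library at 125 CPM, it was 0.19 (adjusted p = 0.000542 by edgeR). MET+LEU and 2% HS differed by -0.01 (95% interval -0.10 to 0.07).

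The single agents sat between SD and MET+LEU for Nfe2l2. In MET the level ran from 96.2 to 110.2 CPM (median 98.6) and in LEU from 99.6 to 112 (median 103), both overlapping with SD. Neither differed from SD past the threshold: the log2 difference was 0.05 for MET (95% interval -0.03 to 0.14, adjusted p = 0.726 by edgeR) and 0.11 for LEU (0.03 to 0.20, adjusted p = 0.306 by edgeR). MET was lower than 2% HS (log2 difference -0.19, adjusted p = 0.000474 by edgeR) and so was LEU (-0.13, adjusted p = 0.0175 by edgeR, and 0.0745 without 2% HS replicate 2). MET+LEU was above MET by 0.17 (adjusted p = 0.00758 by edgeR, and 0.0522 when only the groups compared entered the fit). Against LEU the difference was 0.12 (95% interval 0.03 to 0.20, adjusted p = 0.0921 by edgeR).

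Marker sums of the culture also differed between groups, without all following the order of Nfe2l2. The summed level of the 10 myotube markers ran from 39927 to 42854 CPM with 2% HS and from 32604 to 35256 with SD. It ran from 29350.3 to 33092 for MET, from 36339.9 to 38152 for LEU and from 32079 to 41141 for the pair. Ttn made up most of this sum, at 29100 to 32538 CPM with 2% HS and 22832 to 25866 with SD. Ckm, Myh1, Myh4 and Mybpc2 were also lower in SD without overlap. Acta1, Myh3, Tnnt3, Myog and Des overlapped between SD and 2% HS. For the pair the markers went both ways against 2% HS. Tnnt3 (643 to 1243 CPM, against 459 to 505), Myh3 (1192 to 2050, against 989 to 1082) and Des were above it without overlap. Ckm (128 to 184 CPM, against 289 to 327), Mybpc2 (9.12 to 14.4, against 19.2 to 25.6) and Ttn were below it without overlap. Acta1, Myh1, Myh4 and Myog overlapped with it. The 5 fibroblast markers summed to 543 to 637 CPM with 2% HS, 740.2 to 905 with SD, 755 to 878 for MET, 657 to 786 for LEU and 626 to 707 for the pair. Thy1 was at most 0.49 CPM in any library and Col1a1 made up nearly all of the sum, at 692 to 860 CPM with SD and 572 to 651 for the pair. Dcn did not follow the sum, at 20.6 to 33.8 CPM with SD and 33.5 to 40.3 for the pair. Pdgfra (14.1 to 18.1 and 15.5 to 18.6 CPM) and Lum (1.77 to 2.44 and 1.57 to 2.34) overlapped between SD and the pair. The 6 myoblast and cycling cell markers summed to 366 to 392 CPM with 2% HS, 325 to 368 with SD, 299 to 371 for MET, 296 to 336 for LEU and 281 to 305 for the pair. Of them only Pax7 was lower in SD without overlap, at 183 to 196 CPM with 2% HS and 139 to 159 with SD. The part of these markers in the members' differences was not tested.

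Keap1 differed from 2% HS by at most 0.18 on the log2 scale. KEAP1, the adaptor that holds NRF2 for degradation, is encoded at chr9:21229730-21239361 (minus strand), where an antisense transcript, Gm16754, reached at most 2.28 CPM. Keap1 levels ran from 42.0 to 50.3 CPM in 2% HS (median 45.4), 41.8 to 54.6 in SD (median 49.8), 48.6 to 56.0 in MET (median 52.4), 46.0 to 54.2 in LEU (median 50.5) and 46.1 to 54.2 in MET+LEU (median 50.5). All groups overlapped. SD vs. 2% HS gave 0.10 (95% interval -0.01 to 0.21, adjusted p = 0.186 by edgeR, and 0.0466 without SD replicate 5). The treated groups were past the threshold against 2% HS, MET by 0.18 (adjusted p = 0.00719 by edgeR), LEU by 0.14 (0.0477) and MET+LEU by 0.14 (0.0392), and none of them against SD.

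The Keap1 calls in LEU and MET+LEU rested close to the threshold. Leaving out any 1 of 21 libraries ended the MET+LEU call, with adjusted p between 0.0505 and 0.147 by edgeR: 2% HS replicates 2, 3, 4 and 6, SD replicates 1, 4 and 6, MET replicates 2, 3, 5 and 6, LEU replicates 1 to 5, and MET+LEU replicates 1, 2, 3, 4 and 6. For LEU 10 libraries did so, with adjusted p between 0.0508 and 0.128: 2% HS replicates 2, 3, 4 and 6, MET replicate 4, and LEU replicates 1, 2, 4, 5 and 6. The MET+LEU call also ended with upper-quartile scaling (adjusted p = 0.0908 by edgeR), limma-voom (0.0600) and a minimum of 10 counts in every library (0.0545). The LEU call ended with upper-quartile scaling (adjusted p = 0.0526 by edgeR), that minimum (0.0521) and a GC offset (0.0853).

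Of the regions before the annotated starts, those of Nfe2l2, Srxn1 and Osgin1 are shown because these members moved with serum deprivation and carry a match to the core letters of the antioxidant response element. The letters searched were TGACNNNGC and TGAGNNNGC on both strands, in windows of 300 bases (250 before and 50 after a RefSeq start, GRCm38.p6). Each line gives the 250 bases before the start, 5′ to 3′ on the gene's strand, with matches in capitals. Nfe2l2 is shown at chr2:75704664-75704913 (minus strand), Srxn1 at chr2:152105274-152105523 (plus strand) and Osgin1 at chr8:119436897-119437146 (plus strand), where the RefSeq start lies 3023 bases inside the GENCODE gene.
Nfe2l2: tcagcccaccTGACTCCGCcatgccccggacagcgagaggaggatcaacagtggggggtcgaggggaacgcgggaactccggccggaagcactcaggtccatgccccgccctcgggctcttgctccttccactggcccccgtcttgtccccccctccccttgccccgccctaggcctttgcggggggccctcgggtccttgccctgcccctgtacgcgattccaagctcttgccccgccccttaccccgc
Srxn1: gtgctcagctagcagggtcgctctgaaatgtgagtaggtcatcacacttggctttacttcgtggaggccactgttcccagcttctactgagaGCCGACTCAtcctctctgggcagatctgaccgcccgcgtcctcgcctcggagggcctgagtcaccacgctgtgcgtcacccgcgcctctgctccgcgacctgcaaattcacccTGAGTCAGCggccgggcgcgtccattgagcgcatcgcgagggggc
Osgin1: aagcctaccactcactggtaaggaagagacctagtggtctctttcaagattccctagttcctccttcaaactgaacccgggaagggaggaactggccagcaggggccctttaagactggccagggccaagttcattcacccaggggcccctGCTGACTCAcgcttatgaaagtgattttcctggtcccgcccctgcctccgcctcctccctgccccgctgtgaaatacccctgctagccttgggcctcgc
The Nfe2l2 line holds TGACTCCGC 240 bases before the start. The Srxn1 line holds a pair of matches, TGAGTCAGC on the gene's strand and TGAGTCGGC on the opposite strand, and another, TGACCTAGC on the opposite strand, lies after the start. The Osgin1 line holds TGAGTCAGC on the opposite strand. Of the 8 members with an entry (all but Hmox1 and Gclc), 5 held such letters: these 3, Gclm and Txnrd1, the last in 1 of its 3 windows. By window these were 5 of the members' 10, and over all 32851 windows the share was 27.8%. Bases outside the windows were not searched. The AP-1 word TGACTCA, which can overlap the element, was found in Srxn1 and Osgin1 and in 5.20% of all windows. A match is a description of the letters and not evidence of binding.

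Gclc rose while Gclm, its partner, did not pass the test in any comparison. Gclc (chr9:77754535-77794485, plus strand) encodes the catalytic subunit of glutamate-cysteine ligase, the rate-limiting enzyme of glutathione synthesis, and Gclm (chr3:122245557-122270732, plus strand) the modifier subunit. Gclc ran from 94.4 to 114 CPM in 2% HS (median 101), 106 to 127 in SD (median 115), 107 to 118 in MET (median 115), 115 to 128 in LEU (median 121) and 123 to 147 in MET+LEU (median 124). SD overlapped with 2% HS, and 4 of 6 SD libraries were above all of it. The increase in SD was 0.19 on the log2 scale (SE 0.05, adjusted p = 0.000940 by edgeR). Every MET+LEU library and every LEU library was above every 2% HS library. MET+LEU exceeded 2% HS by 25.4% (log2 difference 0.33, SE 0.05, adjusted p = 1.09e-07 by edgeR), LEU by 18.3% (0.24, adjusted p = 4.20e-05) and MET by 11.4% (0.16, adjusted p = 0.00664).

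The further rise of Gclc with MET+LEU over SD was small and sat at the threshold. It was 0.13 (SE 0.05, adjusted p = 0.0368 by edgeR), with only 1 MET+LEU library above all of SD. That library was MET+LEU replicate 6, at 147 CPM against 123 to 127 in the other 5, and the one with the high ribosomal RNA. Without it the difference was 0.09 (adjusted p = 0.181 by edgeR). The call was also lost without any 1 of 14 other libraries: 2% HS replicates 1 to 4, SD replicates 1, 3, 4 and 6, MET replicate 5, LEU replicates 2 to 5 and MET+LEU replicate 5 (lowest adjusted p of all 15, 0.0507). Limma-voom (adjusted p = 0.112), a GC offset (0.0750), upper-quartile scaling (0.0687) and a fit of only the groups compared (0.149) ended it too. Against MET, Gclc was higher in all 6 MET+LEU libraries (0.17, adjusted p = 0.0141 by edgeR), which became 0.12 (0.0790) without MET+LEU replicate 6 and had adjusted p = 0.0521 without MET replicate 6.

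No comparison of Gclm passed the test. Its medians were 18.8 CPM (2% HS), 18.2 (SD), 19.4 (MET), 18.2 (LEU) and 19.7 (MET+LEU), and libraries ranged from 14.5 to 21.96 CPM. SD vs. 2% HS gave -0.02 (95% interval -0.18 to 0.14) and MET+LEU vs. SD gave 0.12 (-0.04 to 0.28, adjusted p = 0.303 by edgeR). Gclm had 195 to 383 counts in a library, against 1227 to 2181 for Gclc. A transcript on the opposite strand, Gm17494, and a pseudogene on the same strand, Gm6061, overlap Gclm and reached at most 1.78 and 0.469 CPM.

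Among the thioredoxin branch, Srxn1 rose with serum deprivation and Txnrd1 did not change past the threshold anywhere. Srxn1 (chr2:152105516-152111376, plus strand) encodes sulfiredoxin, which reduces over-oxidised peroxiredoxins. It ran from 13.7 to 15.8 CPM in 2% HS (median 14.7) and from 14.005 to 21.1 in SD (median 17.8), where 4 of 6 libraries were above all of 2% HS and the groups overlapped. The difference was 0.26 (SE 0.08, adjusted p = 0.0186 by edgeR), and the adjusted p was above 0.05 without SD replicate 2 (0.0524) and SD replicate 3 (0.0927). The 6 MET libraries, 16.7 to 18.8 CPM, were all above 2% HS (0.24, adjusted p = 0.0249 by edgeR, and 0.0537 without 2% HS replicate 3 or 0.0580 without MET replicate 5). LEU libraries ran from 14.7 to 19.7 CPM and differed from 2% HS by 0.21 (adjusted p = 0.0585 by edgeR).

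With MET+LEU, Srxn1 ran from 12.6 to 17.9 CPM with a median of 15.5, overlapping with both SD and 2% HS. MET+LEU vs. SD gave -0.21 (95% interval -0.38 to -0.04, adjusted p = 0.0686 by edgeR). That value crossed the threshold without SD replicate 5 (0.0147), SD replicate 6 (0.0234) or MET+LEU replicate 2 (0.0174), and with upper-quartile scaling (0.0455). Without MET+LEU replicate 6, the lowest library at 12.6 CPM, the difference was -0.18 (adjusted p = 0.156 by edgeR). MET+LEU and 2% HS differed by 0.04 (-0.13 to 0.22). The LEU difference from 2% HS crossed it without SD replicate 3, 5 or 6, LEU replicate 6, or MET+LEU replicate 2 or 6 (adjusted p 0.0297 to 0.0496 by edgeR), by DESeq2 (0.0481) and limma-voom (0.0247), when only the groups compared were fitted (0.0153) and with a GC offset (0.0408).

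Txnrd1 (chr10:82833951-82897712, plus strand) encodes the cytosolic thioredoxin reductase. Its medians were 85.7 CPM (2% HS), 86.2 (SD), 89.5 (MET), 84.9 (LEU) and 86.3 (MET+LEU), and libraries ranged from 79.9 to 96.7 CPM. SD vs. 2% HS gave 0.02 (95% interval -0.07 to 0.11) and MET+LEU vs. SD gave -0.01 (-0.10 to 0.07). Eid3, a gene inside it on the same strand, had 2.15 to 4.83 CPM.

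Hmox1 was highest in 2% HS and lower in every serum-free group. Hmox1 (chr8:75093621-75100589, plus strand) encodes haem oxygenase 1, which breaks haem down to biliverdin, carbon monoxide and iron. It ran from 35.5 to 39.8 CPM in 2% HS (median 37.3), 29.8 to 34.0 in SD (median 31.6), 26.4 to 28.96 in MET (median 27.5), 26.7 to 31.8 in LEU (median 30.2) and 26.01 to 32.2 in MET+LEU (median 26.8). No serum-free library reached the lowest 2% HS library. Against 2% HS it fell in SD (log2 -0.24, SE 0.05, adjusted p = 0.000503 by edgeR), by 25.9% in MET (-0.43, adjusted p = 5.09e-09), by 20.2% in LEU (-0.33, adjusted p = 3.04e-06) and by 25.4% in MET+LEU (-0.42, adjusted p = 9.26e-09).

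Hmox1 was lower still with MET+LEU than with SD alone. MET+LEU vs. SD gave -0.19 (SE 0.05, adjusted p = 0.0111 by edgeR, and 0.0595 when only the groups compared entered the fit), with 5 of 6 MET+LEU libraries below all of SD. Without MET+LEU replicate 6 it was -0.18 (0.0247). The MET libraries were all 6 below all SD libraries, yet the difference, -0.20 (95% interval -0.31 to -0.09), had adjusted p = 0.117 by edgeR and 0.0381 by DESeq2. LEU differed from SD by -0.09 (-0.20 to 0.02) and MET+LEU from MET by 0.01 (-0.10 to 0.12).

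Nqo1 was near the lower limit of what these libraries could measure. NQO1, a quinone reductase and a common readout of NRF2 activity, is encoded at chr8:107388225-107403206 (minus strand). It had 14 to 47 counts in a library, which were 1.08 to 2.35 CPM in 2% HS (median 1.31), 1.69 to 2.68 in SD (median 2.13), 1.79 to 2.75 in MET (median 2.23), 1.19 to 2.39 in LEU (median 1.81) and 1.43 to 2.55 in MET+LEU (median 1.77). All groups overlapped. SD vs. 2% HS gave 0.46 (95% interval 0.06 to 0.85, adjusted p = 0.0774 by edgeR, and 0.0441 or 0.0211 without 2% HS replicate 4 or 6). MET vs. 2% HS gave 0.52 (0.13 to 0.91, adjusted p = 0.0306 by edgeR), a call lost without 2% HS replicate 1, 2, 3 or 5 or MET replicate 4 or 6 (0.0506 to 0.0846). MET+LEU vs. SD gave -0.21 (-0.60 to 0.17).

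Cat (chr2:103453849-103485160, minus strand) encodes catalase, which splits hydrogen peroxide in peroxisomes. Its medians were 64.4 CPM (2% HS), 65.8 (SD), 64.6 (MET), 62.9 (LEU) and 65.9 (MET+LEU). The differences were 0.00 for SD vs. 2% HS (95% interval -0.08 to 0.08) and 0.05 for MET+LEU vs. SD (-0.04 to 0.13). MET+LEU libraries spread more, from 59.9 to 73.8 CPM, than those of any other group.

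Osgin1 rose in SD, MET and LEU. It (chr8:119434124-119446256, plus strand) encodes oxidative stress induced growth inhibitor 1. It ran from 11.996 to 14.7 CPM in 2% HS (median 12.98), 13.1 to 20.8 in SD (median 16.2), 13.2 to 18.01 in MET (median 15.1), 13.6 to 17.9 in LEU (median 16.2) and 13.3 to 16.6 in MET+LEU (median 14.1), and every pair of groups overlapped. Against 2% HS the log2 difference was 0.33 in SD (SE 0.09, adjusted p = 0.00325 by edgeR), 0.28 in LEU (adjusted p = 0.0118) and 0.23 in MET (0.0369, lost without 2% HS replicate 1, 2, 4 or 5 or MET replicate 4, 5 or 6, at 0.0538 to 0.129). MET+LEU gave 0.14 against 2% HS (95% interval -0.04 to 0.31, adjusted p = 0.213 by edgeR, and 0.0358 with a GC offset) and -0.19 against SD (-0.36 to -0.01, adjusted p = 0.123, and 0.0321 without SD replicate 5). Without MET+LEU replicate 6 the difference from SD was -0.18 (adjusted p = 0.168 by edgeR).

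**Figure D2:**
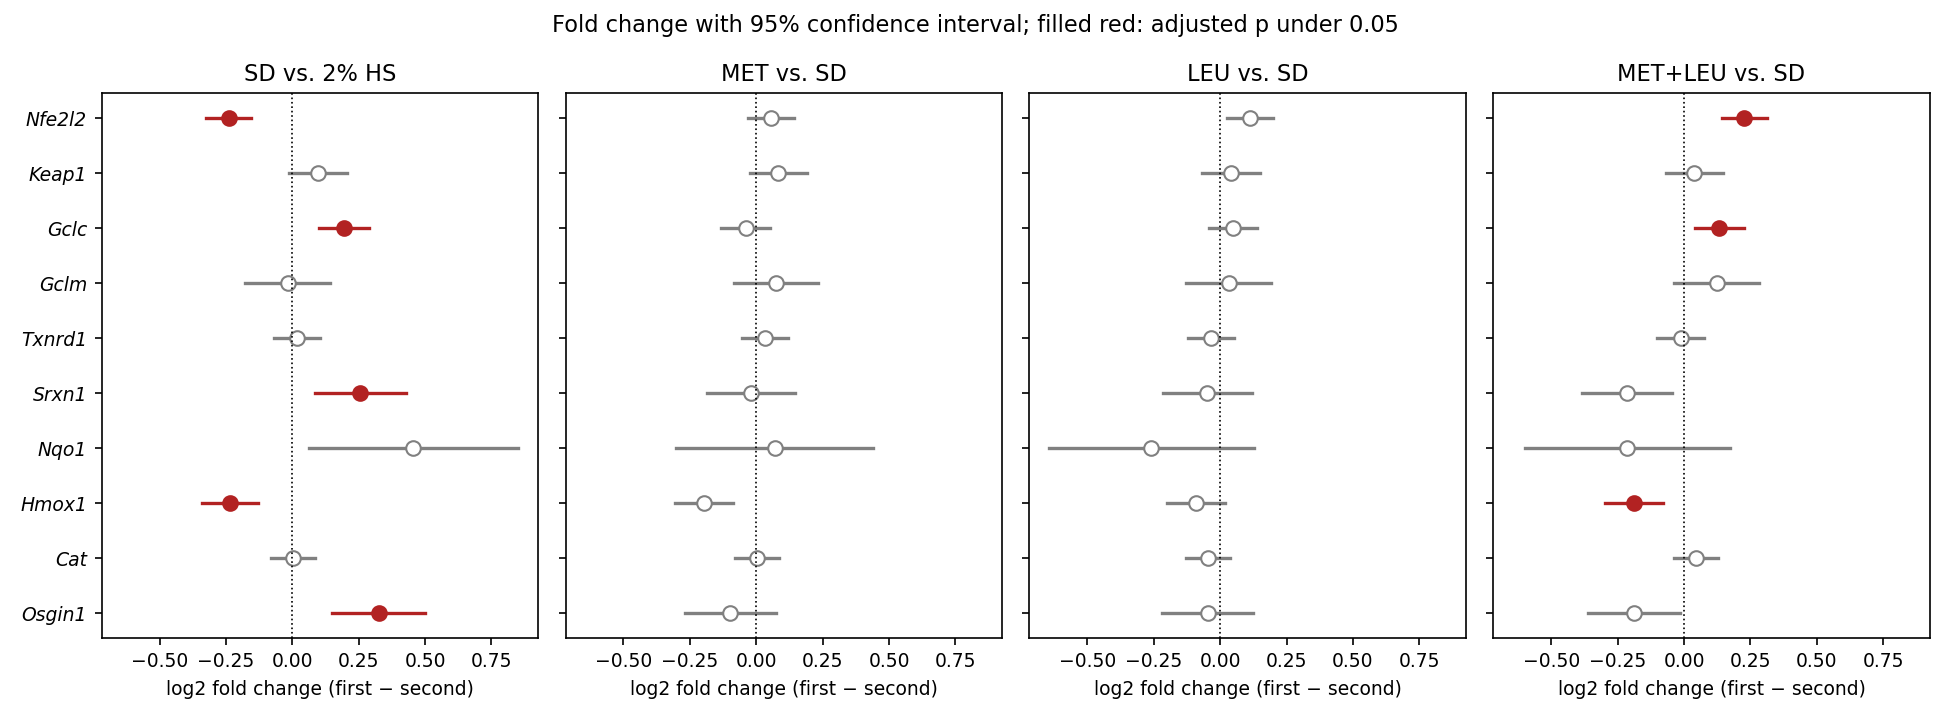
Log2 fold change of each member (point) with its 95% confidence interval (line) in SD vs. 2% HS and in each treatment vs. SD, filled red where the adjusted p was under 0.05. In SD vs. 2% HS 5 members passed, 3 higher and 2 lower, none passed with MET or LEU alone, and with MET+LEU Nfe2l2 and Gclc were higher and Hmox1 lower.

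Across the list, serum deprivation moved members in both directions. In SD vs. 2% HS 3 of 10 members were higher (Gclc, Srxn1, Osgin1), where 13.9% of all tested genes were, and 2 were lower (Nfe2l2, Hmox1), where 13.9% were. For those 2 the libraries did not overlap, as for 13.6% of all genes. The median log2 difference was 0.06 over the members and 0.00 over all genes. Nfe2l2 and 1 target gene were lower while 3 target genes were higher.

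Neither agent alone moved a member past the threshold against SD. For MET vs. SD edgeR called 0 of 10 members, against 0.157% of all genes, with 1 (Hmox1; 10.04% of all genes) at an unadjusted p under 0.05, 1 by DESeq2 and 0 by limma-voom. Its libraries were the only member's not to overlap, as for 0.717% of all genes. For LEU vs. SD edgeR, DESeq2 and limma-voom called 0, against 0.553% of all genes by edgeR, with 1 (Nfe2l2; 9.98% of all genes) at an unadjusted p under 0.05. No member's LEU and SD libraries were free of overlap (1.31% of all genes were). In MET+LEU vs. SD 2 members were higher (Nfe2l2, Gclc; 10.6% of all genes) and 1 lower (Hmox1; 7.80%), and Nfe2l2 was the member whose libraries did not overlap (5.34% of all genes). These 3 comparisons share the SD libraries.

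Whether the agents together did more than their sum was tested as an interaction. No member passed by edgeR, DESeq2 or limma-voom, where 0.0503% of all genes passed by edgeR. None had an unadjusted p under 0.05, where 8.73% of all genes did. The interaction was 0.06 on the log2 scale for Nfe2l2 (95% interval -0.06 to 0.18), 0.12 for Gclc (-0.01 to 0.25) and 0.10 for Hmox1 (-0.05 to 0.26). In MET+LEU vs. MET 2 members were higher (Nfe2l2 and Gclc; 5.54% of all genes) and 0 lower (3.15%), with the Gclc libraries not overlapping (3.77%). In MET+LEU vs. LEU 0 members passed by edgeR, DESeq2 or limma-voom (6.28% of all genes by edgeR), 2 had an unadjusted p under 0.05 (Nfe2l2 and Cat; 21.5% of all genes), and 0 did not overlap (3.60%).

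Each treated group was also set against 2% HS. In MET 5 members were higher (Keap1, Nqo1, Gclc, Srxn1, Osgin1; 17.4% of all genes) and 2 lower (Nfe2l2, Hmox1; 17.5%), with all libraries above for Srxn1 (9.78%) and all below for Hmox1 (10.5%). In LEU 3 were higher (Keap1, Gclc, Osgin1; 14.4%) and Nfe2l2 and Hmox1 lower (15.3%), with all libraries above for Gclc (9.11%) and all below for Hmox1 (9.53%). In MET+LEU 2 were higher (Gclc, Keap1; 22.1%) and Hmox1 was lower (20.3%), with all libraries above for Gclc (11.5%) and all below for Hmox1 (9.51%). These comparisons share the 2% HS libraries.

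**Figure D3:**
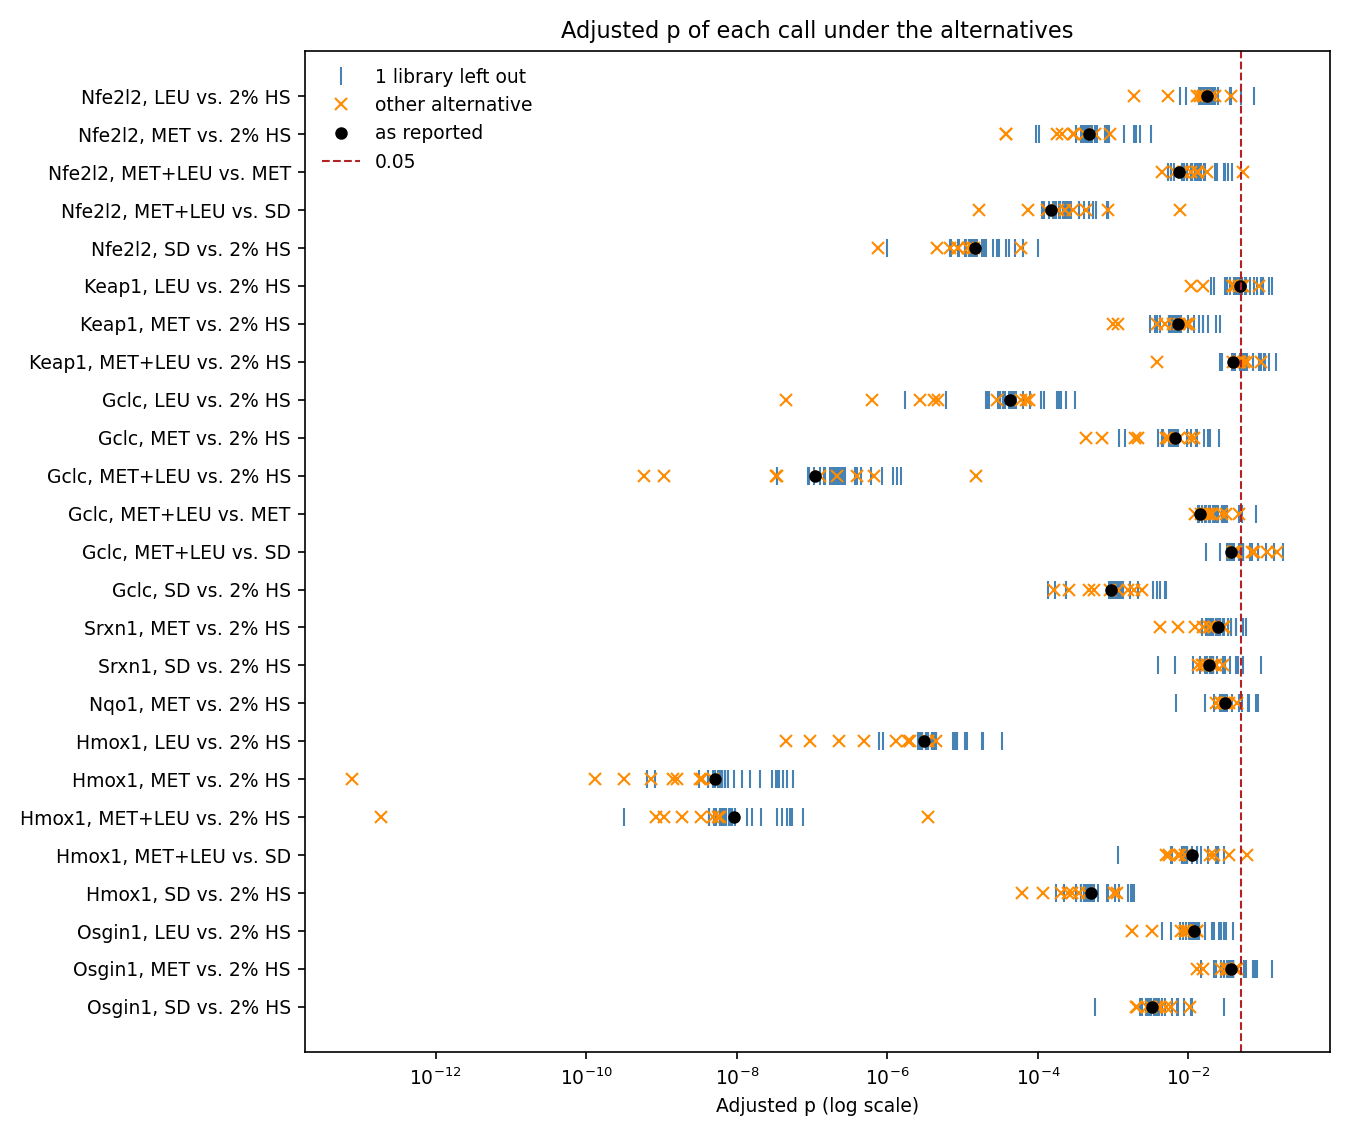
Adjusted p (log scale) of each of the 25 member calls as reported (black), with 1 library left out (blue ticks) and under the other alternatives (orange crosses, without the stricter threshold), with the threshold of 0.05 as a dashed line. The calls of Hmox1 and Gclc against 2% HS and of Nfe2l2 in SD and MET+LEU vs. SD stayed left of the line, whereas Keap1 in LEU and MET+LEU and Gclc in MET+LEU vs. SD straddled it.

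The rest of the antioxidant system was read from a list of 109 genes in 8 roles, of which 108 were in the table and 99 were tested. Serum deprivation raised 31 of the 99 and lowered 13 (31.3% and 13.1%, beside 13.9% each way over all genes), with a median log2 difference of 0.05. The list was chosen with earlier results of these data known, so its counts are a description.

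Among 13 regulators of NRF2 and KEAP1, 1 rose in SD and 1 fell. Mafk, a small MAF partner of NRF2, rose from 31.3 to 36.3 CPM (log2 0.21), and Maff, another, fell from 19.5 to 16.1 CPM (-0.28). In glutathione synthesis and supply 5 of 11 rose and 3 fell. The falls included Slc7a11 (-0.72), the cystine transporter that NRF2 is known to induce, and Chac1 (-0.69), which degrades glutathione and is known as a target of the ATF4 stress response. Abcc4, an exporter of organic anions, rose from 4.83 to 7.74 CPM (0.67).

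Enzymes that use glutathione were split. Of 19, 6 rose and 2 fell in SD. The microsomal transferase Mgst1 (0.81) and the cytosolic transferase Gstm2 (0.58) rose, while Gpx3, the secreted glutathione peroxidase, fell from 452 to 187 CPM (-1.28) with no overlap. In the thioredoxin and peroxiredoxin group 5 of 11 rose and 0 fell at the adjusted threshold by edgeR. Txnip, the thioredoxin inhibitor, had the largest rise of that group, from 38.1 to 111 CPM (1.54), and Prdx4 (0.51) and Txn1 (0.24) rose too. NADPH supply had 4 of 10 higher, among them G6pdx (0.39), the entry enzyme of the pentose phosphate pathway, and Idh1 (0.34), and 1 lower, Me3 (-0.40).

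Of 15 genes for quinone, aldehyde and epoxide handling, 6 rose in SD and 3 fell, with Cbr3 (0.45) and Ptgr1 (0.39) higher and Akr1b3 (-0.38), an aldose reductase, lower. The Cbr3 call had adjusted p = 0.0511 by edgeR without SD replicate 3. In the haem and iron group the member list gene Hmox1 is joined by 8 others, of which only the iron exporter Slc40a1 passed, falling from 46.2 to 18.2 CPM (-1.35). Among 12 genes for superoxide and other stress responses 4 rose and 2 fell, led by Trp53inp1 (0.59), extracellular superoxide dismutase Sod3 (0.50) and Sesn3 (0.37). Sod2, the mitochondrial superoxide dismutase, was at 85.0 CPM in 2% HS and 85.6 in SD (0.01, adjusted p = 0.866 by edgeR).

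With MET+LEU vs. SD 16 of the 99 genes rose and 8 fell (16.2% and 8.08%, beside 10.6% and 7.80% over all genes), with a median of 0.03. Among the regulators Cul3, the ligase scaffold that KEAP1 joins, rose from 230.1 to 270.0 CPM (0.23) and Park7 rose (0.27), while 2 fell, among them Mafg (-0.15). In glutathione synthesis and supply 2 of 11 rose and 4 fell: Chac1 fell further (-0.47), Ggt7 fell (-0.46) and Ggct rose (0.47). Of the glutathione users 5 of 19 rose and 0 fell at the adjusted threshold by edgeR, led by Gsta4 (0.45), Glrx2 (0.28) and Gpx3, which went from 187 to 224 CPM (0.26) and was below 2% HS (log2 difference -1.01). With the single agents, 1 of the 99 genes passed in MET vs. SD (0.157% of all genes) and 0 in LEU vs. SD (0.553%). The 1 was Chac1, lower in MET (-0.43, adjusted p = 0.0350 by edgeR). Its mean was 20.4 CPM in SD, 15.2 in MET and 14.6 in MET+LEU.

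The other roles had few calls with MET+LEU. Prdx2 (0.14) passed of 11 thioredoxin and peroxiredoxin genes, Idh1 (0.12) of 10 for NADPH supply and Fech (0.14), the last enzyme of haem synthesis, of 8 for haem and iron. Cbr1 (0.27) and Ephx1 (0.16) rose and Cbr2 (-0.24) fell among 15 for quinones, aldehydes and epoxides. Both superoxide dismutases inside the cell rose: Sod1, the cytosolic one, from 63.9 to 80.7 CPM (0.33, adjusted p = 5.83e-05 by edgeR) and Sod2 from 85.6 to 94.0 CPM (0.14, adjusted p = 0.00707 by edgeR, and 0.273 with a GC offset). Sesn2, a sestrin, fell (-0.29). The study reported no effect of MET+LEU on SOD2 protein relative to SD, and the RNA counts do not measure protein.

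Several of these small differences did not hold under every setting. Leaving out 1 library ended the calls of Idh1 (SD replicate 1 or 2, or MET+LEU replicate 1 or 4), Mafg (SD replicate 2 or MET+LEU replicate 6), Fech (SD replicate 3 or MET+LEU replicate 6), Ephx1 (SD or MET+LEU replicate 6) and Cbr2 (SD replicate 1, 2 or 5, or MET+LEU replicate 1 or 6), with adjusted p of 0.0522 to 0.146 by edgeR. A GC offset ended those of Idh1 (0.254), Mafg (0.120), Fech (0.0648), Cbr2 (0.167), Sesn2 (0.0548) and Sod2 (0.273). Fitting only the groups compared ended those of Sod2 (adjusted p = 0.0560 by edgeR), Ephx1 (0.0719), Idh1 (0.0869), Mafg (0.0949), Fech (0.0973) and Cbr2 (0.122). Limma-voom ended those of Gsta4 (adjusted p = 0.0686), Mafg (0.104) and Cbr2 (0.244), and a filter of more than 5 counts in total ended that of Cbr2 (0.0641).

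**Figure D4:**
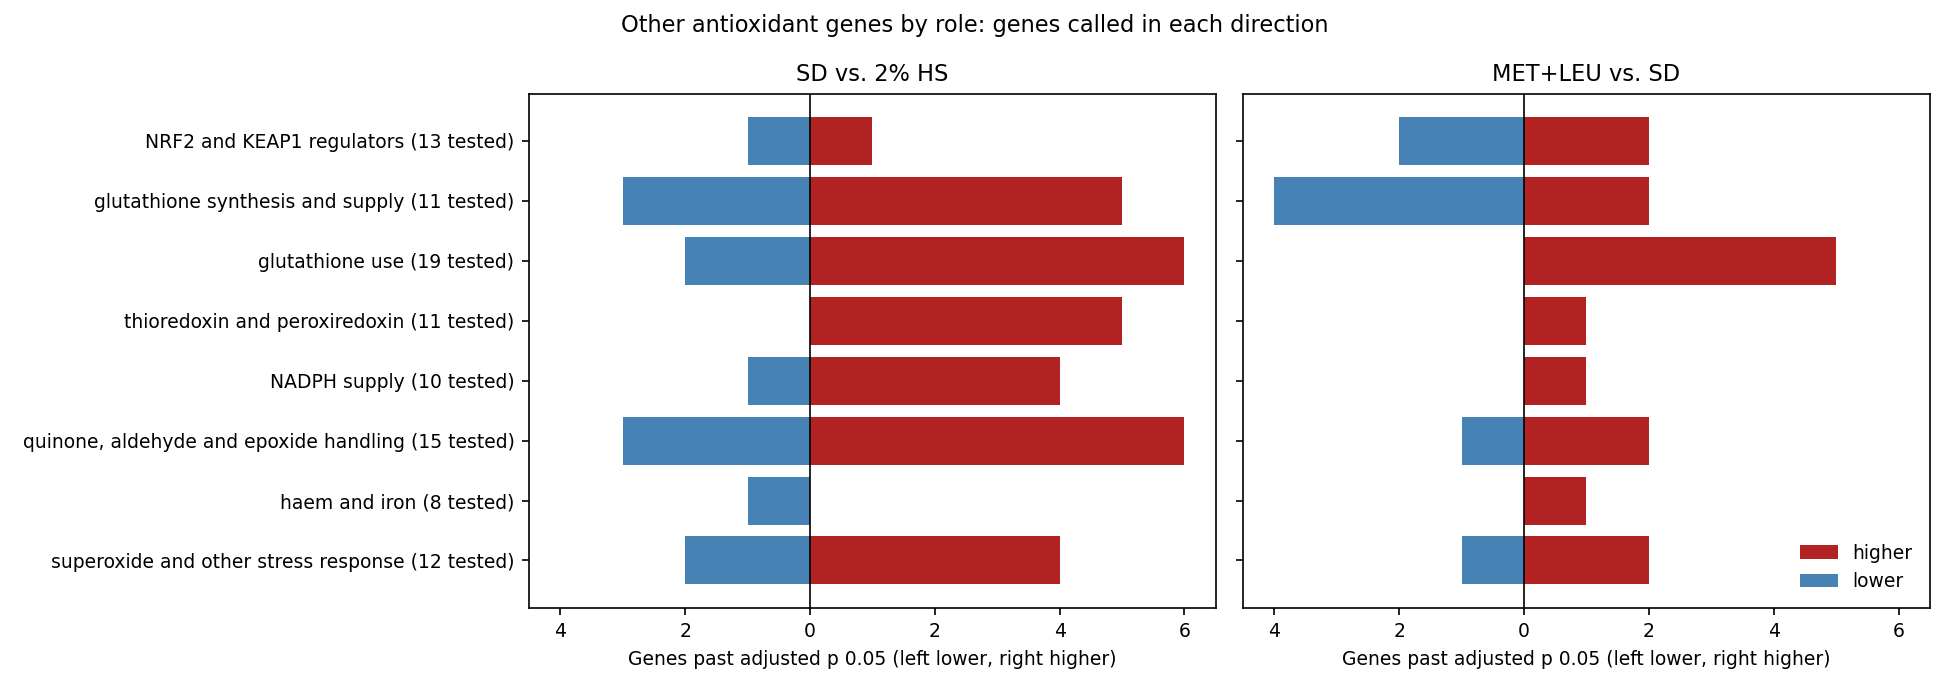
Number of genes past an adjusted p of 0.05 in each role of the wider list (bars, right for higher and left for lower) for SD vs. 2% HS (left panel) and MET+LEU vs. SD (right panel), with the number tested beside each role. Serum deprivation gave 31 higher and 13 lower, and MET+LEU vs. SD 16 higher and 8 lower.

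For the 3 members with the widest range of group means, the genes whose log2 CPM followed them most closely over the 30 libraries were found among 12698 genes. For Hmox1 they were Erlin2 (Pearson's r = 0.917), Slc7a5 (0.904) and Eno1 (0.898). Gclc was followed by Ttc1 (0.863), Rybp (0.859) and Dcn (0.858), the last a fibroblast marker of the list above that did not follow the sum of that list. For Nqo1, with its low counts, the closest were Tap2 (0.700), Tmem43 (0.631) and Pth1r (0.623). These values rank likeness over libraries that share 5 groups, and carry no test.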

How the data were processed

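Counts of 30 RNA-sequencing libraries, 5 groups with 6 replicates each, were grouped by the sample titles. The authors isolated total RNA, depleted ribosomal RNA, made stranded libraries, sequenced paired reads on a NovaSeq and deposited raw counts per gene, whole numbers without normalization. The submitters' processing notes name GRCm38, cutadapt 1.16, STAR 2.7.6a, featureCounts 1.6.3 and DESeq2 1.30.1 without saying which setting each had. The annotation release, strand setting and handling of shared reads are not given in the sources used here, so reads of overlapping genes on opposite strands may not be told apart.

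Of 55487 identifiers, 55227 matched a symbol (GENCODE M21, GRCm38), and the 260 others held 0.00434% of counts. Gene positions and exon lengths came from the same annotation, and promoter windows from RefSeq (GRCm38.p6). Counts were filtered by edgeR 4.0.16 filterByExpr (minimum count 10, minimum total 15) in R 4.3.3, scaled by TMM, and fitted with a mean per group by the quasi-likelihood test over all 30 libraries. P-values were adjusted over 15907 genes. The script was tested on simulated data. The 10 members are those of a given list. The members, the wider list and the tests were chosen with earlier results of these data known. All members are named in every comparison. From the wider list, up to 3 genes per role with the largest change past the threshold and a mean log2 CPM of at least 1 are named, with Sod2. DESeq2, the tool in the study's methods, is an alternative here (version 1.42.0), as are limma 3.58.1 (voom), other scalings, filters, samples and thresholds. Among the 75 pairs of replicates, chi-square per degree of freedom was 2.46 to 191, so no 2 libraries agreed within sampling noise. The pairs with MET+LEU replicate 6 were at 130 to 191, and the highest of the other pairs was at 18.2. P-values and intervals cover the spread between libraries, and limits on counts cover counting error only.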

Additional observations from a re-analysis of the deposited data

Results flagged for a closer look

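Among 230 sets of 6 libraries examined (members and named genes in each group), 6 had 1 library far from the other 5, where chance gives about 1 in 20 sets. The share of the group's range taken by the gap is given for each. Of the members, Nfe2l2 in 2% HS replicate 2 was at 126 CPM against 109.7 to 114 (gap 0.734 of the range), and Gclc in MET+LEU replicate 6 was at 147 CPM against 123 to 127 (gap 0.824). MET+LEU replicate 6, the library with the most ribosomal RNA, was also the highest for Ephx1, at 62.1 CPM against 53.9 to 56.8 (gap 0.641), and the lowest for Sesn2, at 15.4 CPM against 19.5 to 22.2 (gap 0.650). The part of its ribosomal share in these values was not tested. Abcc4 in MET+LEU replicate 2 was at 7.05 CPM against 8.94 to 10.3 (gap 0.628). Sesn3 in LEU replicate 5 was at 130.3 CPM against 119.7 to 123 (gap 0.634).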

How the results depend on the processing

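Each of the 25 member calls was recomputed under 40 alternatives, 10 of settings and 30 of 1 library left out. None changed sign, and 13 stayed past the threshold in all 40. The number of members called changed by more than 1.5 times in these cases. In MET vs. SD it went from 0 to 1 by DESeq2. In MET+LEU vs. SD it went from 3 to 1 when only the groups compared were fitted and to 1 at an adjusted p under 0.01. In MET vs. 2% HS 7 became 4, and in LEU vs. 2% HS 5 became 2, at an adjusted p under 0.01. In MET+LEU vs. MET 2 became 1 under both of those settings. With 1 library left out, the count ran from 2 to 5 in MET+LEU vs. SD (5 without SD replicate 5), 3 to 6 in LEU vs. 2% HS (3 without 2% HS replicate 2) and 1 to 3 in MET+LEU vs. MET (1 without MET replicate 6 or MET+LEU replicate 6), and from 4 to 6, 2 to 3 and 5 to 7 in SD, MET+LEU and MET vs. 2% HS. Apart from the stricter threshold, which can only remove calls, the cause of these changes was not tested.

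A replicate block gave 5 members in SD vs. 2% HS, 4 in MET+LEU vs. SD, 3 in MET+LEU vs. 2% HS, 7 in MET vs. 2% HS, 6 in LEU vs. 2% HS, 2 in MET+LEU vs. MET and 0 in the rest. Over all 15907 genes the block called 4498, 3113, 6823, 5711, 4818 and 1583 in those comparisons, in that order. Without the block these were 4424, 2931, 6734, 5563, 4723 and 1382. In the rest it called 52 in MET vs. SD (25 without it) and 102 in LEU vs. SD (88). In MET+LEU vs. LEU it called 1103 (999) and for the interaction 17 (8). The block added Srxn1 in MET+LEU vs. SD (adjusted p = 0.0442 by edgeR) and in LEU vs. 2% HS (0.0455). Of 60 pairs of libraries with the same replicate number 2 had a correlation of deviations over 0.1 (mean 0.0157), so the number was not taken as a pairing. Of 30 libraries 11 correlated best, on average, with those of their own number. An even spread over the 6 numbers would give fewer, so this check is a hint of pairing from the data and not the design.

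Without MET+LEU replicate 6 the count of all genes called became 160 in MET vs. SD (25 with it), 269 in LEU vs. SD (88), 726 in MET+LEU vs. MET (1382) and 457 in MET+LEU vs. LEU (999). When only the groups compared were fitted, MET+LEU vs. SD had 1345 genes in place of 2931. With upper-quartile scaling, higher and lower genes were 1446 and 1556 in MET+LEU vs. SD (1690 and 1241 by TMM), 3057 and 3674 in MET+LEU vs. 2% HS (3510 and 3224), 631 and 637 in MET+LEU vs. MET (881 and 501) and 417 and 356 in MET+LEU vs. LEU (733 and 266). Depth limits Nqo1, whose standard error on the log2 scale was 0.19 to 0.20 between 2 groups and 0.27 for the interaction.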
